A study of Mus musculus with 123 samples.

Results

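Myh6, Myh7 and Myh7b, 3 of the 23337 gene symbols in the count table, encode the striated muscle myosin heavy chains named α, β and 7b. They were taken by name and described in every cell that had a count for at least 2000 genes, which kept 112 of 123 cells. The cells were single αMHC-GFP+ cells from mouse hearts, 42 kept at embryonic day 9.5 (E9.5), 29 at E12.5 and 41 at postnatal day 1 (P1), all of the aMHC-GFP strain and with no treatment named. The reporter limits these cells as a measure of Myh6, since αMHC is the product of Myh6 and the sort was made on GFP driven by its promoter. Because the animal, litter, pool and chip of a cell are not in the labels, a time point counts as 1 sample here, and no p-value is given for differences between cells. Naming sets, the groups of cells that share a title prefix, were used to see how far a value moved within a time point. Set C held 14 cells and set N530 28 cells at E9.5. At E12.5 set C held 20 cells, set N523 8 and set E12-5b 1. All P1 cells were of set C, so comparisons within set C hold the naming set the same, and sets N530 and N523 have no P1 cells to be set against.

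Myosin heavy chains pair into the thick filament rods of the sarcomere, and their globular heads split ATP to pull on actin. The α chain is the fast ATPase and the β chain the slow and economical one. In the mouse the early heart tube transcribes both, the embryonic ventricle is known for Myh7, the atria for Myh6, and around birth ventricles switch from Myh7 to Myh6 under the influence of thyroid hormone. Myh7b is an ancient member of the family with a low level in heart. Each of the 3 genes carries a microRNA in an intron, which links the myosin genes to the regulation of one another.

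In the GENCODE annotation of GRCm38, Myh6 lies on the minus strand at chr14:54941921-54966927 and Myh7 on the same strand at chr14:54970684-54994626, with 3756 bases between them. Myh7b lies on the plus strand at chr2:155611212-155634307. The hairpin of Mir208a is in intron 29 of Myh6, that of Mir208b in intron 31 of Myh7 and that of Mir499 in intron 19 of Myh7b. The mature microRNAs below are shown because they tie the 3 hosts together. They are from RefSeq (GRCm38.p6), 5′ to 3′, with the seed (bases 2 to 8) in capitals.
mmu-miR-208a-3p, from Myh6: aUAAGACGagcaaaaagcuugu
mmu-miR-208b-3p, from Myh7: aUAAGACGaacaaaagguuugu
mmu-miR-499-5p, from Myh7b: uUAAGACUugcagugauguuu
The microRNAs of Myh6 and Myh7 had the same seed, and that of Myh7b matched it at 6 of 7 bases. The count rows named Mir208a and Mir499 were at 0 in every kept cell, and Mir208b had 113 counts in 2 E9.5 cells and 12 in 2 P1 cells. These libraries were made by the SMART-Seq method from polyadenylated RNA, so these rows do not measure mature microRNAs.

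Reads of Myh6 and Myh7 could be exchanged in counting, because the genes are near-identical copies. Their coding sequences, 5817 and 5808 bases long, were identical at 91.7% of 5805 aligned bases, whereas Myh7b was 71.5% identical to Myh6 and 72.1% to Myh7. Of the 6039 stretches of 75 bases (the read length) in the Myh6 transcript ENSMUST00000081857, 15.5% also stood in the Myh7 transcript ENSMUST00000102803, the longest common coding run being 245 bases. No stretch of that length was shared with Myh7b. The 60 coding bases in which the 2 genes differ most, at 27 positions shown in capitals, illustrate what set their reads apart (bases 3226 to 3285 of the Myh6 and 3220 to 3279 of the Myh7 coding sequence, GENCODE vM21, 5′ to 3′).
Myh6: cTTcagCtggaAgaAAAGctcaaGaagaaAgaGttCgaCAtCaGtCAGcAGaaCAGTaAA
Myh7: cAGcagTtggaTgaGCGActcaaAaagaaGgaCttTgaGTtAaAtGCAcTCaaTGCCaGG
How the counting treated reads that match both genes is not given in the sources used here. In 1 P1 cell with 1265 Myh6 counts there was no Myh7 count, which allows a Myh7 share of up to 0.237%, so at most that share of the reads of Myh6 was counted as Myh7 in that cell. The antisense RNA Mhrt overlaps 3666 bases of Myh7, is not a row of the table used here and, as the kit does not mark strand, its reads could not be told from those of Myh7.

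A cell had 268301 to 6351742 counts at E9.5, 148258 to 7711355 in the E12.5 group and 69522 to 327360 in the P1 group, and the sets N530 and N523 were sequenced more deeply than set C. Levels are CPM (counts of a gene in 1000000 counts), either per cell or pooled over the summed counts of a time point, with an exact Poisson interval, and intervals cover counting error only. All 12 cardiomyocyte markers were found at each time point, and of the markers of other cells, the erythroid list was at 0 at P1 for all 6 genes measured. The fibroblast list summed to at most 4007 CPM in a cell and the endothelial list to at most 7507 CPM, with a median of 0 over the cells of each time point for the endothelial list. The epicardial list reached at most 2695 CPM and the macrophage list 636 CPM in a cell. The smooth muscle list was higher, with medians of 4373, 2324 and 1110.1 CPM in the order of the time points and 3 of its 3 tested genes called lower from E9.5 to P1, where 35.7% of all genes were, and its part in the results was not tested. 4 sorted cells had less than 1000 CPM of Tnnt2, Actc1, Ttn and Mybpc3 together. Of these, 3 E9.5 cells of set C had no count of Myh6, Myh7 or Myh7b and no count of Ttn, and 1 P1 cell had 4 Myh6 counts, no Myh7 or Myh7b count and 19.4 CPM of Ttn. This P1 cell was the one with 7507 CPM of endothelial markers, and 1 of the 3 E9.5 cells held 1843 CPM of them, the highest of its time point.

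Myh6 had counts in 39 of 42 E9.5 cells and in all 29 E12.5 and 41 P1 cells. Per cell it ran from 0 over a median of 4370 to 24036 CPM in E9.5 cells. In E12.5 cells it ran from 18.3 over 746 to 5535 CPM, and in P1 cells from 19.4 over 10700.0 to 21383 CPM. The E12.5 cells were thus the low group, with their highest cell under the median of P1, and E9.5 overlapped both. Pooled over cells, Myh6 was at 8217 CPM in the E9.5 group (8199.7 to 8235), 1360.01 CPM in the E12.5 group (1349.9 to 1370.2) and 11213 CPM in the P1 group (11134 to 11293), the 5th most counted symbol at E9.5 and P1 and the 76th at E12.5. In set C of E9.5 it was at 2672 CPM against 8542 CPM in set N530, and the sets of E12.5 were at 1719.8 and 1300.2 CPM, closer to each other than those of E9.5.

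Myh7 was found in 39 of 42, 29 of 29 and 39 of 41 cells. Its level in E9.5 cells ran from 0 over a median of 3255 to 14392 CPM. It ran from 12.4 over 1802 to 5587 CPM in E12.5 cells and from 0 over 209.5 to 1136 CPM in P1 cells. No P1 cell reached the median of either embryonic group taken over all its sets. Over the cells with a Myh7 count, the median was 317 CPM in set C of E9.5 and 233 CPM at P1, a narrower difference than with set N530, at 3838 CPM. With the 3 set C cells at 0 counted, the set C median was 140 CPM, below the 209.5 CPM of all P1 cells. Pooled, Myh7 was at 4114 CPM (4102 to 4127), 1991 CPM (1979 to 2004) and 297 CPM (284 to 310), which made it the 12th, 48th and 515th symbol by counts. The sets of E12.5 stood at 1955 and 2007 CPM, whereas at E9.5 set C was at 782 and set N530 at 4309.6 CPM.

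Myh7b was sparse, with counts in 13 of 42 E9.5 cells (31.0%, exact Clopper-Pearson interval 17.6 to 47.1%), 12 of 29 E12.5 cells (41.4%, 23.5 to 61.1%) and 20 of 41 P1 cells (48.8%, 32.9 to 64.9%). These intervals overlap. P1 cells were the shallowest, and with every cell thinned to 100000 counts the shares were 19.0%, 31.0% and 50% (38 P1 cells reached that depth). Cells with 10 or more Myh7b counts were 21.4%, 31.0% and 29.3%, so that P1 was then not the highest. That cutoff is not matched for depth. It asks for a higher CPM at P1, where the median cell had 149078 counts, than at E9.5 (2476022) or E12.5 (493238). The highest cells of the 3 time points, in their order, held 211, 158 and 805 CPM, and each median was 0. Pooled, Myh7b was at 10.3 CPM (9.71 to 11.0), 8.23 CPM (7.46 to 9.06) and 67.3 CPM (61.3 to 73.8). Single cells carried much of the embryonic values, 38.5% of the counts at the first time point and 45.9% at the second, against 20.7% at P1. In all 45 cells with Myh7b counts Myh7 was found as well, and so was Myh6.

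**Figure D1:**
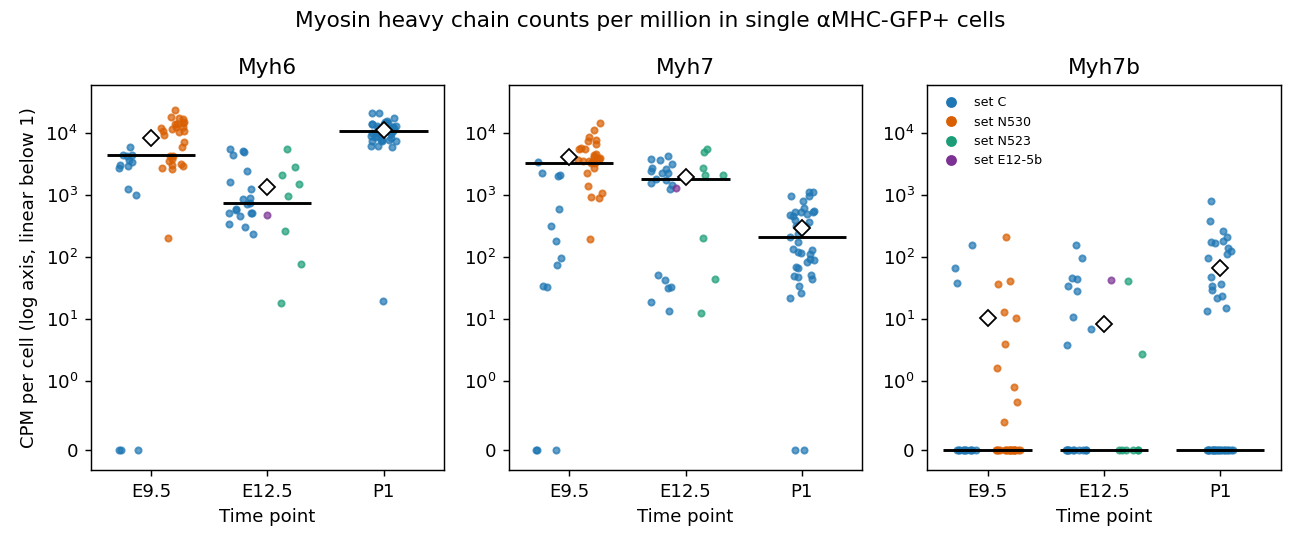
CPM of Myh6, Myh7 and Myh7b in each kept cell (points, coloured by naming set) at E9.5, E12.5 and P1, on a log axis that is linear below 1, with the median over cells as a black line and the pooled CPM as a white diamond. Myh6 is lowest at E12.5 with a median of 746 CPM, Myh7 lowest at P1 with 209.5 CPM, and the median of Myh7b is 0 at each time point.

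Levels were compared between the genes on the deposited TPM, which correct for length. The lengths behind them differed little, by a factor of 1.00 for Myh6 over Myh7 and of 1.01 for Myh7b over Myh6 in every cell where both had 10 or more counts. Mean TPM over cells was 2771 for Myh6, 1249 for Myh7 and 4.94 for Myh7b at E9.5. At E12.5 the order of the first 2 was turned, with 491 for Myh6, 564 for Myh7 and 5.59 for Myh7b. At P1 it was 3019 for Myh6, 88.3 for Myh7 and 19.9 for Myh7b. Myh6 over Myh7 thus went from 2.22 over 0.871 to 34.2, and Myh7b supplied between 0.123% and 0.637% of the 3 genes' summed TPM. With the set values above, Myh6 lay over Myh7 in both sets of E9.5 and under it in both sets of E12.5, so that this order held in each set of both time points.

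Within single cells, the Myh6 share of the Myh6 and Myh7 counts was computed wherever these summed to 10 or more. At E9.5 it ran from 36.8% over a median of 68.1% to 99.2% in 39 cells, and 32 of them held more Myh6 than Myh7. At E12.5 it ran from 6.88% over 27.1% to 99.4% in 29 cells, and 10 held more Myh6. At P1 it ran from 92.2% over 97.8% to 100% in 40 cells, and all 40 held more Myh6. The order-statistic interval of the median was 58.2 to 76.4% for E9.5, 19.1 to 72.01% for E12.5 and 96.4 to 99.1% for P1, so over all cells the first 2 overlapped and the third did not meet either of them. Within set C the intervals were 45.7 to 99.1% for E9.5 and 17.8 to 98.1% for E12.5, and both overlapped that of P1. Counting error was small beside the spread between cells, with a median width of the exact interval of a cell's share of 0.992, 3.48 and 1.48 percentage points.

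The spread of the shares also differed by naming set. Over both sets of E9.5 no gap between neighbouring cells was wider than 6.31 percentage points, but in set C alone no cell lay between 66.4% and 92.1%, and 3 cells lay at 98% or more. At E12.5 there were 19 cells below 50%, 4 between 59.5% and 85.8%, and 6 between 98.1% and 99.4%. P1 cells crowded at the top, with 17 of 40 at 98% or more. Between naming sets the E9.5 median was 92.1% in set C (11 cells) and 67.0% in set N530 (28 cells), and the E12.5 median 23.5% in set C (20 cells) and 38.7% in set N523 (8 cells). In set C, which is at a similar depth at both embryonic times, the median share was therefore higher at E9.5, as it was in N530 against N523. All 6 E12.5 cells above 98% were of set C, and no cell of N530 or N523 reached 95%.

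**Figure D2:**
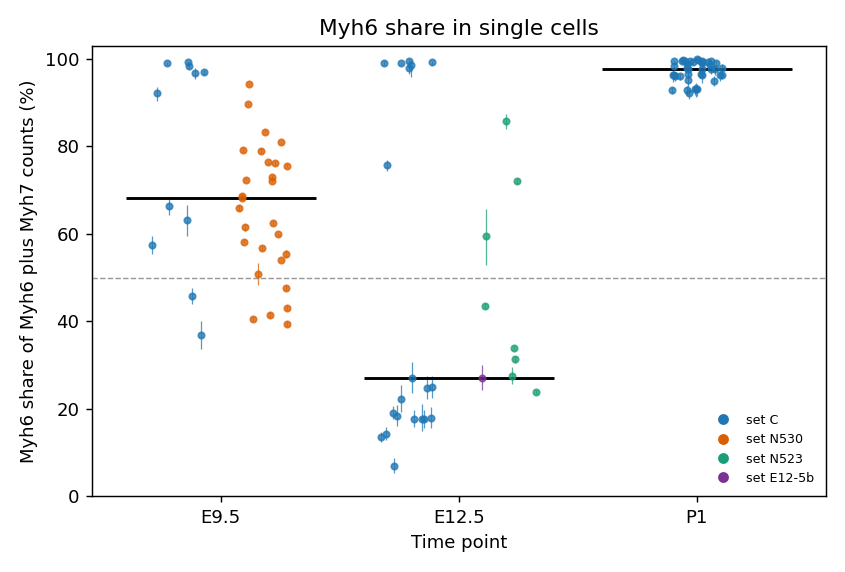
Myh6 share of the Myh6 plus Myh7 counts in each cell with 10 or more counts of both together, by time point and naming set, with the exact 95% interval of each cell as a thin bar, the median over cells as a black line and 50% dashed. Shares spread from 36.8% to 99.2% at E9.5, lie under 50% in 19 of 29 E12.5 cells, and lie at 92.2% or more at P1.

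The 6 E12.5 cells above 98% held 1273 to 5089 CPM of Myh6 and 13.5 to 50.6 CPM of Myh7. In the 14 cells of set C with Myl2 at 1000 CPM or more, Myh6 ran from 237 over 552 to 5535 CPM and Myh7 from 1245 over 2354 to 4250 CPM. The correlation of Myh6 with Myh7 over the cells of a set, given as a description since the cells share their library chemistry and depth, was a Spearman rho of -0.42 in E12.5 set C, 0.81 in N523 (8 cells), 0.35 and 0.46 in the E9.5 sets C and N530, and 0.31 at P1. Of the 14 cells behind the 0.35, 3 had no count of either gene, and these shared zeros raise the value. Its sign among the cells of that set with counts was not computed. 3 of the 8 N523 cells summed to under 1000 CPM of Myh6 and Myh7. In these, genes of 5000 bases or more took 7.65 to 11.5% of the counts and Ttn, the longest sarcomere gene, stood at 6.42 to 182 CPM, against 12.7 to 18.1% and 2735 to 11529 CPM in the other 5, and the part of long-transcript recovery in their low myosin was not tested.

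**Figure D3:**
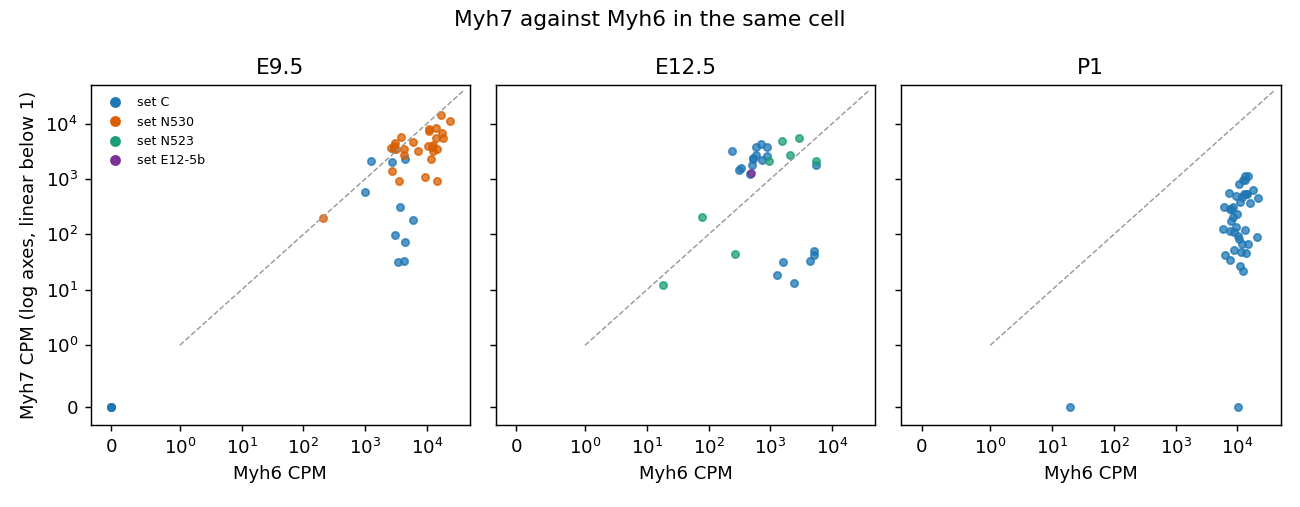
Myh7 CPM against Myh6 CPM of the same cell, in a panel for each time point on log axes that are linear below 1, coloured by naming set, with equal levels dashed. Below the line, where Myh6 exceeds Myh7, lie 32 of the 39 E9.5 cells with a share, 10 of 29 E12.5 cells and all 40 such P1 cells.

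The share was then set beside the regulatory light chains, since Myl2 is the ventricular and Myl7 the atrial form that binds the neck of these heavy chains. At E12.5 the 6 cells above 98% were the same 6 cells that had no Myl2 count, and they held 11121 to 19810 CPM of Myl7. Their atrial marker list summed to 16779 to 25334 CPM, but Sln was found in 4 of the 6 and Nppa had a median of 0 and a maximum of 364 CPM. The 23 E12.5 cells with Myl2 had shares of 6.88% over a median of 24.8% to 85.8%. In these, Myl7 ran from 318 over 2741 to 34330 CPM, Nppa from 0 over 48.2 to 32004 CPM and the atrial list from 833 over 5538 to 49067 CPM. At 1000 CPM of Myl2 or more, the median share was 57.5% in 11 E9.5 cells, 23.9% in 21 E12.5 cells and 97.7% in 36 P1 cells. Below that level it was 74.6% in 28 E9.5 cells, 98.8% in 8 E12.5 cells and 99.7% in 4 P1 cells. Over all sets the median share was thus higher below that level at each time point, with the widest difference at E12.5. At E9.5 the sets differed, with 51.6% at that level or more and 97.0% below it in set C (4 and 7 cells). In set N530 the values were 59.9% and 72.2% (7 and 21 cells). Single E9.5 cells below that level went down to 63.1% in set C and 41.4% in set N530. The cells next to this limit held 984 and 1087 CPM of Myl2 among E9.5 cells, 645 and 1042 CPM among E12.5 cells and 826 and 1959 CPM among P1 cells.

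The makeup of the cells moved with time in the same measure. Cells with Myl2 at 1000 CPM or more were 11 of 42 at E9.5 (26.2%), 21 of 29 at E12.5 (72.4%) and 36 of 41 at P1 (87.8%), and whether this came from the sort, the dissection or the stage was not tested. In these cells alone the pooled level of Myh6 was 5125, 1069 and 11584 CPM and that of Myh7 was 4106, 2328 and 333 CPM. In the same cells Myh7b was at 3.96, 10.3 and 76.1 CPM. Pooled over sets, the order of the time points for Myh6 and Myh7 was as in all cells, and that for Myh7b differed between E9.5 and E12.5. Within set C, Myh7 in these cells was at 2510 CPM at E9.5 (4 cells) and 2599 CPM at E12.5 (14 cells), so its order there was not kept. The 4 P1 cells under the limit that had a share held 10150 to 13818 CPM of Myh6, 0 to 93.5 CPM of Myh7, 3253 to 6034 CPM of Sln, the atrial regulator of the calcium pump, and 23793 to 120233 CPM of the natriuretic peptide gene Nppa. Their Myh6 lay inside the range of the 36 P1 cells with Myl2 at 1000 CPM or more, from 5966 to 21383 CPM.

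**Figure D4:**
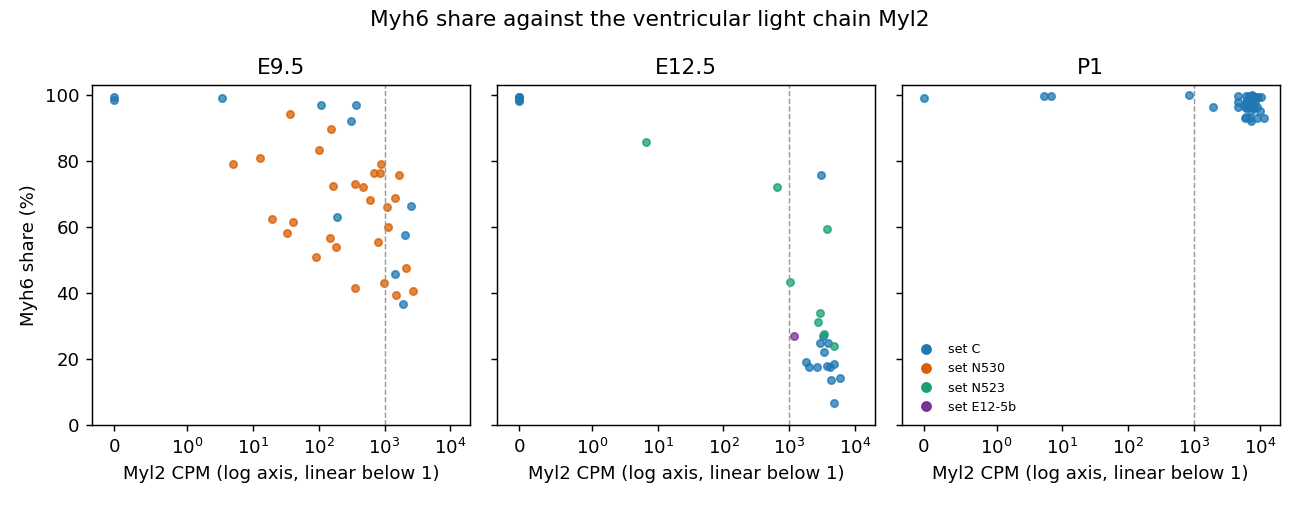
Myh6 share against Myl2 CPM of the same cell, a panel for each time point, with Myl2 on a log axis that is linear below 1 and 1000 CPM dashed. At E12.5 the 6 cells at 0 Myl2 lie above 98% and the others run down to 6.88%, whereas at P1 cells on both sides of the line lie at 92.2% or more.

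Changes between time points were given as log2 ratios of pooled CPM and called where they passed 2-fold and had the same sign in all pairings of naming sets, a rule in place of a test. From E9.5 to E12.5, Myh6 was lower by a factor of 6.04, a log2 ratio of -2.60 with an SD over the 4 combinations of 1.00, and was called. Its value within set C alone was -0.64, short of 2-fold. Myh7 stood at -1.05 (SD 1.42), between -1.14 and 1.36 over the combinations, and Myh7b at -0.33 (SD 1.41), between -2.04 and 1.23, so neither was called and set C by itself had Myh7 higher at E12.5, by 1.32. Thus 1 of 3 genes was called lower, where 22.7% of the 8647 genes tested were, and 0 of 3 higher, where 9.14% were. The median of all genes tested was -0.60. The TMM factors of edgeR raise each ratio of this pair by 0.45, which turns 790 genes called higher and 1959 lower into 1379 and 1363, and puts Myh6 at -2.15.

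From E12.5 to P1, 2 of 3 genes were called higher and 1 lower, beside 25.1% and 23.3% of 8122 genes tested. Myh6 was higher by a factor of 8.24, a log2 ratio of 3.04 with an SD of 0.29 over 2 combinations. Myh7 was lower by a factor of 6.70, a log2 ratio of -2.74 with an SD of 0.03, and its values against sets C and N523 lay between -2.76 and -2.72. Myh7b was higher by a factor of 8.18, a log2 ratio of 3.03 with an SD of 1.56 and a range of 1.56 to 3.76. The median of all genes tested in this pair was 0.05. The sum of Myh6 and Myh7 was 3351 CPM before and 11510 CPM after birth, a log2 ratio of 1.78 (SD 0.11).

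From E9.5 to P1, 1 of 3 genes was called higher and 1 lower, beside 18.1% and 35.7% of 9003 genes tested, whose median was -0.59. Myh7 was lower by a factor of 13.8, a log2 ratio of -3.79 with an SD of 1.74, and the value against set C of E9.5 was -1.40 on pooled counts. Myh7b was higher by a factor of 6.52, a log2 ratio of 2.70 (SD 0.75), between 1.72 and 2.79. Myh6 stood at 0.45 (SD 1.19), between 0.39 and 2.07, and was not called. Over 13 alternatives it ran from 0.12 to 2.07, and with medians over cells it was at 1.29, past 2-fold. In settings not planned beforehand it was at 1.18 (cells with Myl2 at 1000 CPM or more) and 1.06 (relative to genes of 5000 bases or more). The sum of Myh6 and Myh7 was 12332 CPM in the E9.5 group against 11510 CPM, a log2 ratio of -0.10, less than the SD of 1.34, while within set C it went from 3454 to 11510 CPM. How far total myosin differed between these times could therefore not be read apart from the naming set.

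**Figure D5:**
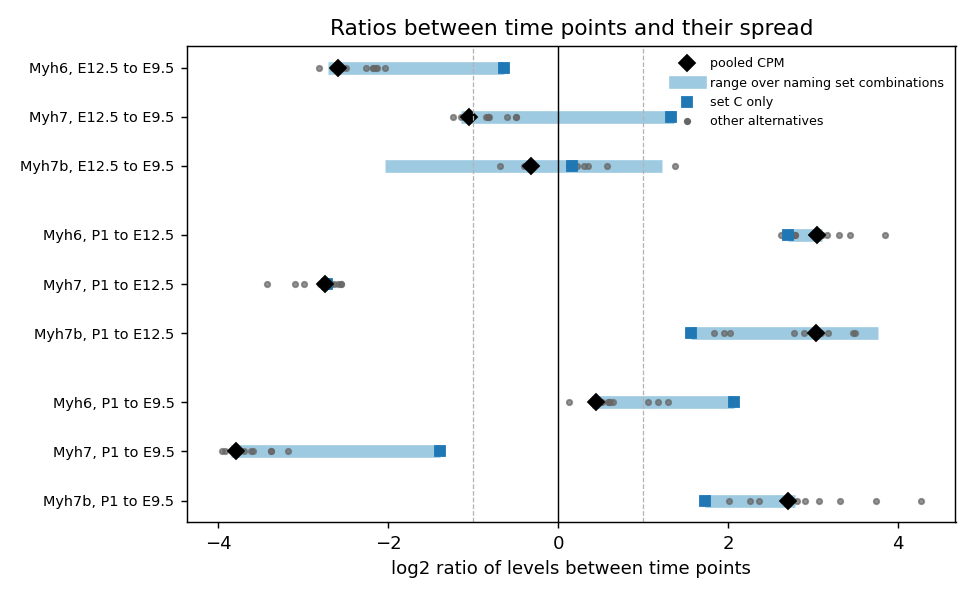
Log2 ratios of Myh6, Myh7 and Myh7b for the 3 pairs of time points, with the pooled value as a black diamond, the range over naming set combinations as a pale bar, the value in set C as a blue square and the other processing alternatives as grey points, and 2-fold dashed. Both bars that cross 0 belong to Myh7 and Myh7b from E9.5 to E12.5, and the bars of the 6 called ratios lie on 1 side of 0.

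The other heavy chains were near 0 in these cells. Of the 7 genes of skeletal and extraocular muscle, Myh1, Myh2, Myh3, Myh4, Myh13 and Myh15 reached at most 0.178 CPM pooled at any time point, and Myh8, the perinatal skeletal form, had 25, 1 and 29 counts in the order of the time points. These stood among 101042067, 50538600 and 6819717 pooled counts, so its level was highest at P1. The smooth muscle chain Myh11 had 21 counts at E9.5 and none later, and Myh14 had 1 count in all. The non-muscle chains, which drive cytokinesis and cell shape, were present. Myh9 was at 271, 111 and 30.5 CPM, called lower in each of the 3 pairs, and Myh10 was at 339, 99.1 and 76.2 CPM, called lower at E12.5 and P1 against E9.5. Of all genes tested, 22.7% were called lower from E9.5 to E12.5, 23.3% from E12.5 to P1 and 35.7% from E9.5 to P1.

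The light chains did not move as 1 group. Of 7 light chain genes, 2 were called higher and 4 lower at P1 against E9.5, beside 18.1% and 35.7% of all genes tested, with a median log2 ratio of -1.81 beside -0.59 for all genes. Higher were Myl2 (735, 2656 and 6344 CPM) and the ventricular essential chain Myl3 (3468, 4219 and 8080 CPM). Lower were the fetal and atrial Myl4 (3077, 4636 and 453 CPM), the atrial Myl7 (12247, 7352 and 2447 CPM), Myl1 (1235, 1728 and 352 CPM) and the non-muscle Myl6 (775, 579 and 164 CPM). Myl9, of smooth muscle, stood at 1376, 1539 and 986 CPM and was not called. Against E12.5, 1 light chain was called higher at P1 and 4 lower, beside 25.1% and 23.3% of all genes, while from E9.5 to E12.5 only Myl2 was called, higher by a log2 ratio of 1.85, where 9.14% of all genes were called higher and 22.7% lower.

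Among the partners of the thick filament, 8 of 11 genes were tested from E9.5 to P1 and 1 was called higher, none lower, with a median of 0.12, where all genes had 18.1% higher, 35.7% lower and a median of -0.59. From E12.5 to P1, 5 of 8 were called higher and none lower, beside 25.1% and 23.3% of all genes, with a median of 1.17 beside 0.05. The gene called higher in both pairs was Myom2, a crosslinker of the M band, at 0.614, 0 and 87.98 CPM, found in 25 of 41 P1 cells. Against the 0 counts of E12.5, which allow 3 counts over the group, it was at least 1482-fold higher at P1. Trim55, a ubiquitin ligase of the M band, stood at 170, 160 and 304 CPM, and Mybpc3, the myosin-binding protein of the C zone, at 1980, 1061 and 1149 CPM, neither called. Of the myosin folding genes, 6 of 6 were called lower at P1 against E9.5, where 35.7% of all genes were, with a median of -1.63 beside -0.59. Of these the muscle chaperone Unc45b was at 797, 329 and 102 CPM, Unc45a at 38.1, 0.218 and 0.587 CPM (found in 7, 2 and 1 cells) and the heat shock protein Hsp90ab1 at 4556, 3791 and 1453 CPM.

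The switch between Myh7 and Myh6 is known to respond to thyroid hormone, and 9 of the 12 pathway genes were tested from E9.5 to P1. 3 were called higher and none lower, beside 18.1% and 35.7% of all genes, with a median of 0.47 beside -0.59. The β receptor Thrb had 306 counts in 2 P1 cells and none earlier, and the activating deiodinase Dio2 had 71 counts in 4 P1 cells and none earlier. The α receptor Thra (30.0, 13.3 and 19.9 CPM), the corepressor Ncor1 (273, 117 and 168 CPM) and the mediator subunit Med13 (66.1, 26.0 and 66.1 CPM) were found in more cells and were not called between E9.5 and P1. Against E12.5, 4 of 9 genes were called higher at P1, Med13 among them, and none lower, beside 25.1% and 23.3% of all genes. Of 7 chromatin regulators, 3 were called lower at P1 against E9.5 and none higher, with a median of 0.02, a count near the 35.7% of all genes called lower. They were Smarca4, the ATPase of the BAF complex (117, 42.5 and 29.5 CPM), Parp1 (258, 43.4 and 78.2 CPM) and Hdac1 (52.2, 46.2 and 19.2 CPM). Hdac9 was at 11.4, 25.3 and 48.4 CPM and not called. Of 13 transcription factors tested, 4 were called higher and 3 lower, beside 18.1% and 35.7% of all genes, and the median of -0.56 was close to that of all genes, -0.59. Mef2c (645, 380 and 131 CPM) and Nkx2-5 (18.7, 4.93 and 6.74 CPM), both early cardiac regulators, were lower, and Nfatc2 was higher at 0.960, 23.4 and 19.6 CPM but in only 3, 4 and 5 cells.

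The genes whose level went most like each member over the cells within a set were named from 3507 genes found in 25% or more of the cells of every set, or 3508 for Myh7b and the Myh6 share, by the mean Spearman rho over the 5 sets. These values describe cells that share depth and chemistry. Those for Myh6, Myh7 and Myh7b include the sorted cells with little Tnnt2, Actc1, Ttn and Mybpc3. Such cells are low in many cardiomyocyte genes at once, which can raise rho. For Myh6 they were the sodium-calcium exchanger Slc8a1 (0.52), Ttn (0.51), the calcium pump Atp2a2 (0.47), the ryanodine receptor Ryr2 (0.46) and the ubiquitin ligase Fbxo32 (0.45). For Myh7 they were Ttn (0.55), Myl3 (0.47), phospholamban Pln (0.47), the splicing regulator Rbm20 (0.44) and the desmosome gene Pkp2 (0.42), while Myh6 itself stood at 0.30. The sign was positive in all 5 sets for the 5 genes named for each, except in E12.5 set C for Ttn with Myh6 (-0.10) and Rbm20 with Myh7 (-0.04). For Myh7b they were Iars, Psmb10, Mccc1, Dcbld2 and R3hdm1 (0.45 to 0.40), from a gene with no count in most cells. Apart from Myh7 and Myh6, the Myh6 share went most with Myl7 (0.45), Lpp (0.44), Maged2 (0.43) and Syde2 (0.37). It went most against Myl2 (-0.58), Higd1a (-0.54), Myl3 (-0.52) and the replication clamp Pcna (-0.51). For Myl2 the sign was negative in all 5 sets, from -0.80 in E12.5 set C to -0.22 at P1.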

How the data were processed

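The RNA of single αMHC-GFP+ cells was reverse transcribed and amplified in the Fluidigm C1 system with SMART-Seq V4 chemistry, and Nextera XT libraries were read on a NextSeq as single reads of 75 bases. Per the authors' methods, reads were aligned with OLego and counted with featureCounts; GRCm38 (mm10) is the build in the submitters' processing notes, and the annotation, strand setting and treatment of multiply mapped reads are not given in the sources used here. The authors deposited raw counts per gene symbol and TPM computed from those counts, on a linear scale, with 1 column for each of 123 cells. No 2 columns were identical. Cells with 2000 or more genes were kept (112), groups were taken from the labels, and naming sets from the title prefixes.

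From the deposited counts, CPM per cell, pooled CPM with exact Poisson intervals, Clopper-Pearson intervals of shares and order-statistic intervals of medians were computed at a level of 95% (Python 3.11.15, SciPy 1.17.1). The deposited TPM served for levels between genes and as an alternative. Since the labels give no replicates, no test was made. Ratios were called past 2-fold where all combinations of naming sets of 6 or more cells had the same sign, among genes at 10 CPM or more in either time point, and the SD over these combinations served as the spread, taken from 4 or 2 values. A count of 0 was read as up to 3 counts. TMM factors came from edgeR 4.0.16, and figures from matplotlib 3.10.9. The members and the 18 gene lists were chosen with earlier results of these data known. Named genes were the members, all genes of the other heavy chain, light chain and microRNA lists, in each further list of non-marker genes the 3 tested with the largest change from E9.5 to P1, and the 5 genes most like each member; Hdac1, Thra, Ncor1, Med13, Rxrg, Sln, Nppa and Ttn were named after their values were seen. The values of 1 gene that this rule names are not reported here. The code was tested on simulated data. Sequences and gene models were read from GENCODE vM21 and RefSeq tables of GRCm38, the build of the submitters' notes.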

Additional observations from a re-analysis of the deposited data

Results flagged for a closer look

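The 11 P1 cells with fewer than 2000 genes entered the comparisons only under the alternative of 1000 or more genes, and all 3 genes were found in them, which is why they are given here. They held 4903 to 149120 counts each and 1091 to 1985 genes. Pooled, Myh6 was at 10825 CPM (10585 to 11069), Myh7 at 298 CPM (259 to 341) and Myh7b at 71.3 CPM (53.1 to 93.8), found in 11, 7 and 5 cells. The 41 kept P1 cells stood at 11213, 297 and 67.3 CPM, the first above the interval and the others within it. The Myh6 share ran from 87.1% over a median of 99.3% to 100%. There are no control samples for these cells, and each level was above the 3 counts that a count of 0 allows. Groups of more than 10 cells were not searched for single outlying cells.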

How the results depend on the processing

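Of the 9 ratios, 6 were called, and over 76 alternatives to these 75 values stayed past 2-fold, the exception being Myh6 from E9.5 to E12.5 in set C. The sign within set C is fixed by the rule for calls. With cells of set C only, the log2 ratio of Myh6 was -0.64 from E9.5 to E12.5, 2.70 from E12.5 to P1 and 2.07 from E9.5 to P1. There, Myh7 was at 1.32 from E9.5 to E12.5 and -1.40 from E9.5 to P1, Myh7b at 1.72 from E9.5 to P1, and the E9.5 median share at 92.1%. From E12.5 to P1, Myh6 was at 3.84 with medians over cells, 2.62 with mean TPM and 2.72 in cells with 3000 or more genes. For the same pair Myh7, whose spread was small, was at -3.10 with medians, -2.55 with means over cells, -2.68 with mean TPM, -3.42 with 3000 genes, -2.997 with TMM and -2.56 thinned. It was at -2.70 in cells with heart genes, -2.64 without cells titled "no", -2.59 without the highest cell and -2.69 relative to the counts of long genes. Myh7b from E9.5 to P1 was at 3.74 with 3000 genes. With Myl2 at 1000 CPM or more, chosen after seeing the data, Myh6 was at 3.44 and Myh7 at -2.80 from E12.5 to P1, Myh7b at 1.37 from E9.5 to E12.5 and 4.26 from E9.5 to P1, and the E9.5 median share at 57.5%. Counting only cells with 10 or more counts, a cutoff not matched for depth, Myh7b was found in 29.3% of P1 cells, beside 21.4% at E9.5 and 31.0% at E12.5. Genes called higher from E9.5 to E12.5 numbered 1379 with TMM in place of 790. Without the condition on naming sets, 1779 were higher and 3685 lower in that pair. At 50 CPM, 924 were lower in that pair, 778 higher and 1132 lower from E12.5 to P1, and 779 higher and 1646 lower from E9.5 to P1. The cause of these shifts was not tested, beyond fewer genes at 50 CPM. No paired analysis was possible because the labels pair no cells between time points. With 1 sample per time point, stage cannot be told apart from animal or capture, also within set C. Per the authors' methods, embryonic hearts were digested with collagenase and P1 hearts with Liberase, for longer and then strained. In every P1 comparison this difference cannot be told apart from stage.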

Other observations

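A few rows owed their counts at a time point to very few cells. All 29 counts of the perinatal skeletal chain Myh8 at P1 came from 1 cell. The retinoid receptor gene Rxrg, a partner of the thyroid hormone receptors, had 4003 counts at E12.5, all from 1 cell, beside 135 counts in 1 cell at E9.5 and 59 in 2 cells at P1. The row Mir208b, inside intron 31 of Myh7, had its 113 E9.5 counts in 2 cells, at a time when Myh7 had 415730 counts over 39 cells.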
